A study of Rattus norvegicus with 6 samples.

Results

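The genes described are 10 transporters that carry inorganic phosphate, sulfate or urate across the membranes of the proximal tubule, the first stretch of the nephron after the glomerulus. They were chosen by name, though with earlier results of these data known. They comprise 4 phosphate carriers (Slc34a1, Slc34a3, Slc20a1, Slc20a2), 2 sulfate carriers (Slc26a1, Slc13a1) and 4 carriers of urate and other organic anions (Slc17a1, Slc17a3, Slc22a12, Slc2a9). They are 10 of the 32663 gene entries tested, and each was read from the array probes whose transcript accession belongs to its symbol. All 10 had a probe, 20 probes in all, and every probe was well above background and unsaturated on all 6 arrays, so none was lost to the filter on dim probes. The animals were male Sprague-Dawley (Crl:CD(SD)) rats, 5 weeks old at purchase and kept on a basal diet, and the tissue was renal cortex. The treated group was 3 animals given anthraquinone, a tricyclic quinone, at 1000 mg/kg/day for 4 weeks, and the control group was 3 animals given the corn oil vehicle for the same time. Each animal had its own 1-colour (Cy3) Agilent array. The question set by the series is which genes of this tissue change with anthraquinone.

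Most filtered phosphate and sulfate is taken back in the proximal tubule, and the amount returned to blood follows how much carrier the brush border holds. Phosphate enters from the lumen with sodium through the type II carriers encoded by Slc34a1 and Slc34a3, under the control of parathyroid hormone and FGF23, while the Slc20 carriers are found in most cells. Sulfate enters through the sodium-coupled carrier of Slc13a1 and leaves towards blood through the anion exchanger of Slc26a1. Urate is taken up from the lumen by the exchanger of Slc22a12 and leaves towards blood through the carrier of Slc2a9, while the carriers of Slc17a1 and Slc17a3 move urate and organic anions, drugs among them, into the lumen.

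The 75th percentile of processed intensity was 844 to 880 on the anthraquinone arrays and 903 to 1190 on the corn oil arrays. Between 64.2 and 66.1% of probes were well above background with anthraquinone and between 68.7 and 70.7% with corn oil. One slide, scanned separately, held the array of corn oil replicate 1 and no other, and a second slide held the other 5. On that second slide all anthraquinone arrays lay in row 2 and both corn oil arrays in row 1, so treatment and row cannot be told apart there, and corn oil replicate 1 is the only control array in row 2. Levels below are log2 processed intensity minus the array's 75th percentile, so 0 is the 75th percentile and 1 unit is a doubling. Differences are anthraquinone minus corn oil on that scale. In limma, adjusted for all entries by Benjamini-Hochberg at 0.05, 9 entries passed, 0.0276% of those tested.

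None of the 10 transporter genes passed that test (lowest limma adjusted p = 0.188). In this scaling, differences were largest for Slc26a1 (0.65 ± 0.14, SE) and Slc17a3 (0.62 ± 0.13), then for Slc22a12 (0.52 ± 0.16), Slc20a1 (0.37 ± 0.11), Slc17a1 (0.35 ± 0.15) and Slc20a2 (0.31 ± 0.16). The main phosphate carriers of the brush border, Slc34a1 and Slc34a3, and the sulfate carrier Slc13a1 lay within 0.11 of 0. At an unadjusted p under 0.05, 4 of the 10 were higher, against 9.43% of all entries, and 0 of the 10 were lower, against 7.69%. Every anthraquinone array lay above every corn oil array for 5 of the 10, against 14.9% of all entries. The opposite order, every anthraquinone array below, held for 0 of the 10, against 10.3%. All 10 differences were above 0 in this scaling, with a median of 0.33, against 51.5% and a median of 0.01 for all entries. Because the genes were chosen with earlier results of these data known, these counts are a description only. Bright entries leaned upward as a whole, and the signs of Slc34a1, Slc34a3 and Slc13a1 differed between scalings, as given further on.

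**Figure D1:**
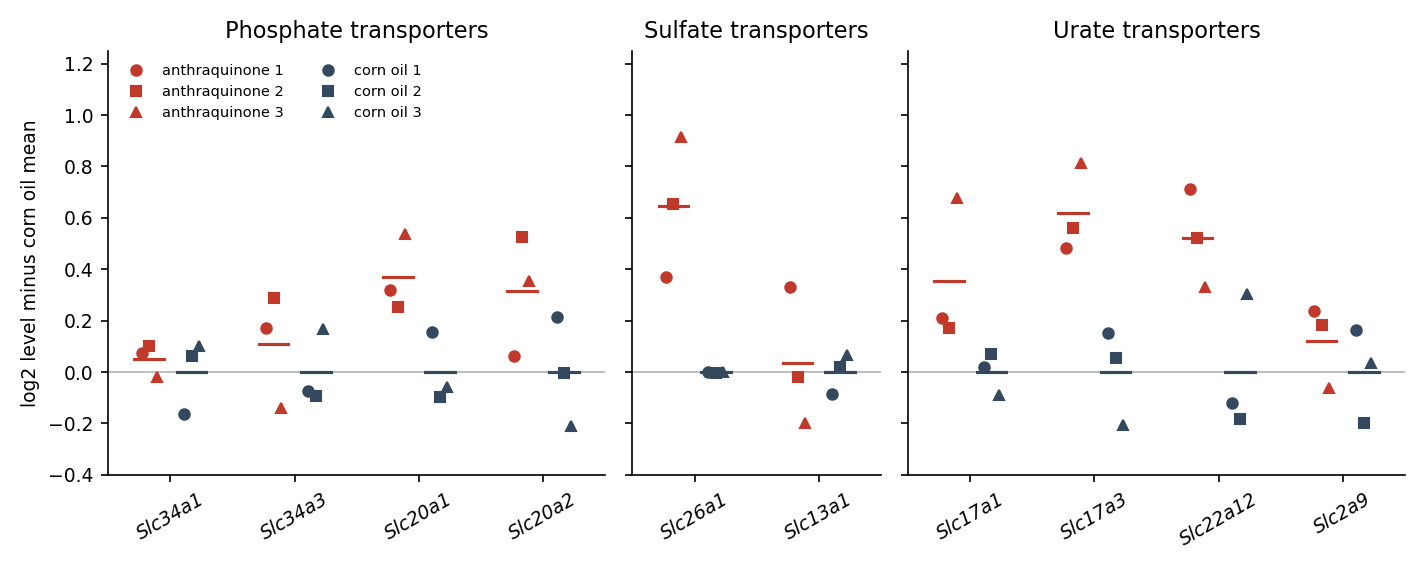
Level of each transporter gene on each array, as log2 minus that gene's corn oil mean, with anthraquinone (red) left of corn oil (blue); each marker is 1 animal and each bar a group mean. The groups do not overlap for Slc20a1, Slc26a1, Slc17a1, Slc17a3 and Slc22a12 and overlap for the other 5.

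Of the sulfate carriers, Slc26a1, the exchanger of the basolateral membrane, gave the larger difference. It was also the highest of the 10 in this scaling, though not after quantile normalization (0.46, against 0.52 for Slc17a3) or cyclic loess (0.49, against 0.51). Nor was it highest relative to its brightness band (0.47, against 0.51 for Slc17a3). With 1 array left out, Slc26a1 stayed highest only without anthraquinone replicate 1. Without corn oil replicate 1 it was 0.65, against 0.70 for Slc17a3, and without corn oil replicate 3 it was 0.65, against 0.67 for Slc22a12. The level of Slc26a1 was 6.64, 6.92 and 7.19 in anthraquinone replicates 1, 2 and 3, against 6.27, 6.27 and 6.27 in corn oil replicates 1, 2 and 3. The corn oil animals were almost identical and all 3 treated animals lay above them, each by a different amount. The means were 6.92 ± 0.27 with anthraquinone and 6.27 ± 0.002 with corn oil (SD, n = 3 each), a 1.56-fold higher level (95% interval of the log2 difference 0.30 to 0.99, limma adjusted p = 0.188). Slc26a1 has 1 probe on this array, so no second probe could be set beside it, and whether that probe also binds transcripts of Idua, a gene that spans the same locus, was not tested.

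Slc13a1 encodes the luminal sodium-sulfate cotransporter. Its brightest probe gave 4.27, 3.92 and 3.74 with anthraquinone, against 3.86, 3.96 and 4.01 with corn oil. The treated animals lay on both sides of the controls. The difference was 0.04 ± 0.14 (SE, 95% interval -0.32 to 0.39, limma adjusted p = 0.923), and 2 dimmer probes gave -0.14 and 0.01. A difference between genes within an array is free of scaling by a constant, though not of quantile or loess scaling. Set to 0 at the corn oil mean, Slc26a1 minus Slc13a1 was 0.04, 0.67 and 1.11 in the treated animals, against 0.09, -0.02 and -0.07 in the controls, so anthraquinone replicate 1 lay among the controls and the other 2 treated animals above them.

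Slc17a3, which encodes the luminal organic anion and urate carrier NPT4, differed by nearly as much. It measured 4.76, 4.84 and 5.09 with anthraquinone, against 4.43, 4.33 and 4.07 with corn oil. The lowest treated animal exceeded the highest control. The means were 4.89 ± 0.17 with anthraquinone and 4.27 ± 0.19 with corn oil (SD, n = 3 each), a 1.54-fold higher level (95% interval 0.30 to 0.94, limma adjusted p = 0.188). Slc17a1, which encodes the related carrier NPT1, measured 2.11, 2.07 and 2.58 with anthraquinone, against 1.92, 1.97 and 1.81 with corn oil. These groups did not overlap either, but anthraquinone replicate 3 stood well above the other treated animals. The difference of 0.35 ± 0.15 (SE, limma adjusted p = 0.303) was 0.19 without that animal. Within an array, Slc17a3 minus Slc17a1 was 0.27, 0.39 and 0.14 in the treated animals, against 0.13, -0.01 and -0.12 in the controls, set to 0 at the corn oil mean, a separation by a narrow margin. Slc17a3 and Slc17a1 have 1 probe each, and how far each probe would also bind a paralog was not tested.

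Slc22a12, which encodes the urate-anion exchanger URAT1, measured 5.42, 5.23 and 5.04 with anthraquinone, against 4.59, 4.53 and 5.01 with corn oil. The groups were apart by a narrow margin, since anthraquinone replicate 3 and corn oil replicate 3 nearly met. The means were 5.23 ± 0.19 and 4.71 ± 0.26 for anthraquinone and corn oil (SD, n = 3 each), a 1.44-fold higher level (95% interval 0.12 to 0.92, limma adjusted p = 0.222). Its 2 dimmer probes gave 0.50 and 0.47. Slc2a9, which encodes the urate carrier GLUT9, measured 2.17, 2.12 and 1.87 with anthraquinone, against 2.10, 1.74 and 1.97 with corn oil. Those groups overlapped, with a difference of 0.12 ± 0.13 (SE, 95% interval -0.20 to 0.43, limma adjusted p = 0.677), and a dimmer probe gave 0.06. Within an array and set to 0 at the corn oil mean, Slc22a12 minus Slc2a9 was 0.48, 0.34 and 0.39 in the treated animals, against -0.28, 0.02 and 0.27 in the controls. Those values did not overlap, and no test was made of this difference. Slc26a1 minus Slc34a1, set in the same way, was 0.29, 0.55 and 0.94 in the treated animals, against 0.17, -0.06 and -0.10 in the controls, also without overlap. Of 7 such pairs 3 lay apart and 4 overlapped. The pairs were picked by hand, and some set a gene with a large difference against one near 0. A separation there largely restates the values of the single genes. No share was computed over pairs of other entries, so the count supports nothing. The other overlapping pairs were Slc17a3 minus Slc2a9 (0.25, 0.38 and 0.88 in the treated animals, against -0.01, 0.26 and -0.24 in the controls), Slc34a1 minus Slc34a3 and Slc20a1 minus Slc20a2.

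Slc34a1 encodes NaPi-IIa, the main phosphate carrier of the rat proximal tubule. It measured 8.60, 8.63 and 8.51 with anthraquinone, against 8.37, 8.59 and 8.63 with corn oil. All treated values lay inside the range of the controls. The difference was 0.05 ± 0.10 (SE, limma adjusted p = 0.818), and its 95% interval of -0.18 to 0.29 holds no change as large as the estimate for Slc26a1. A dimmer probe gave -0.002. Slc34a3, which encodes NaPi-IIc, measured 5.35, 5.47 and 5.04 with anthraquinone, against 5.11, 5.09 and 5.35 with corn oil. The treated animals surrounded the controls, and the difference was 0.11 ± 0.14 (SE, 95% interval -0.23 to 0.44, limma adjusted p = 0.728).

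The type III phosphate carriers are widely expressed. Slc20a1, encoding PiT-1, measured 1.51, 1.44 and 1.73 with anthraquinone, against 1.34, 1.09 and 1.13 with corn oil. Every treated animal was above every control, with means of 1.56 ± 0.15 and 1.19 ± 0.14 for anthraquinone and corn oil (SD, n = 3 each, 1.29-fold, limma adjusted p = 0.218). A dimmer probe of Slc20a1 gave 0.34. Slc20a2, encoding PiT-2, measured 3.28, 3.74 and 3.58 with anthraquinone, against 3.43, 3.21 and 3.01 with corn oil. Anthraquinone replicate 1 lay below corn oil replicate 1, so these groups overlapped (difference 0.31 ± 0.16, SE, limma adjusted p = 0.367). The 3 dimmer Slc20a2 probes gave 0.20, 0.28 and 0.20. With the row on the slide as a block, the differences were 0.22 for Slc20a1 and 0.10 for Slc20a2.

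**Figure D2:**
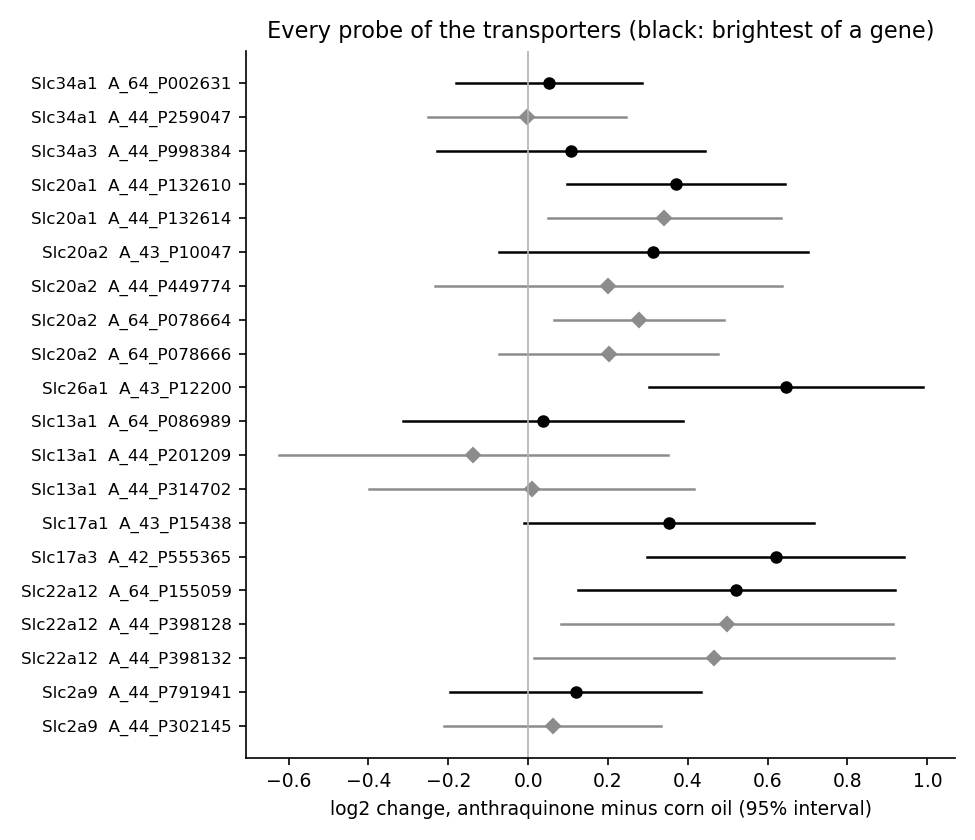
Log2 difference (anthraquinone minus corn oil) and 95% interval for each of the 20 probes of the 10 transporter genes, from the fit of every probe alone. The probes of Slc20a1, Slc20a2 and Slc22a12 lie above 0, and those of Slc34a1 and Slc13a1 lie on both sides of 0.

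The treated animals did not share 1 order across the transporter genes. Anthraquinone replicate 3 was the highest of its group for Slc26a1, Slc17a3, Slc17a1 and Slc20a1 and the lowest for Slc34a1, Slc34a3, Slc13a1, Slc22a12 and Slc2a9. The same animal had a Havcr1 level of -1.48, against -4.65 and -4.14 in anthraquinone replicates 1 and 2, and -4.78, -4.80 and -4.43 in corn oil replicates 1, 2 and 3. Havcr1 encodes kidney injury molecule 1. Of the other tubular injury genes tested, Clu, Spp1, Timp1 and Lcn2 were also highest of the treated group in anthraquinone replicate 3. Vcam1 and Cdkn1a were lowest in that animal, and Krt8 and Krt18 lay between. The part of these genes in the transporter differences was not tested. Without anthraquinone replicate 3 the differences were 0.51 for Slc26a1, 0.52 for Slc17a3, 0.62 for Slc22a12 and 0.29 for Slc20a1. Without corn oil replicate 1, which leaves 1 slide with the groups in different rows, they were 0.65, 0.70, 0.46 and 0.45 for the same genes in that order. With the row as a block, which sets the treated animals against corn oil replicate 1 alone, they were 0.645, 0.47, 0.64 and 0.22.

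Brightness moved with the differences. With all entries sorted by mean signal into 20 bands of equal size, the median difference was 0.18 in the brightest band, which holds Slc34a1, Slc34a3 and Slc26a1. It was 0.11 in the band below, which holds Slc17a3, Slc22a12 and Slc13a1, and 0.02 to 0.07 in those of the other 4 genes. Relative to their bands, Slc17a3 lay 0.51 higher, Slc26a1 0.47, Slc22a12 0.41, Slc20a1 0.36 and Slc17a1 0.32, while Slc34a1 lay at -0.13 and Slc34a3 and Slc13a1 at -0.07 each. After quantile normalization, which removes such a trend, Slc26a1 was 0.46 and Slc17a3 0.52, and Slc34a1, Slc34a3 and Slc13a1 were -0.08, -0.01 and -0.05. Of 8 genes often used as stable references, 7 were above 0, with a median of 0.16. Gapdh (0.32 ± 0.09, SE), Hprt1 (0.31 ± 0.10) and Rplp0 (0.27 ± 0.09) were higher at an unadjusted p under 0.05, as was B2m (0.19 ± 0.08). So 4 of the 8 in that list were, against 9.43% of all entries. The others were Ppia (0.13), Tbp (0.09), Ywhaz (0.02) and Actb (-0.09). The part of the brightness trend in the transporter differences was not tested beyond these values.

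**Figure D3:**
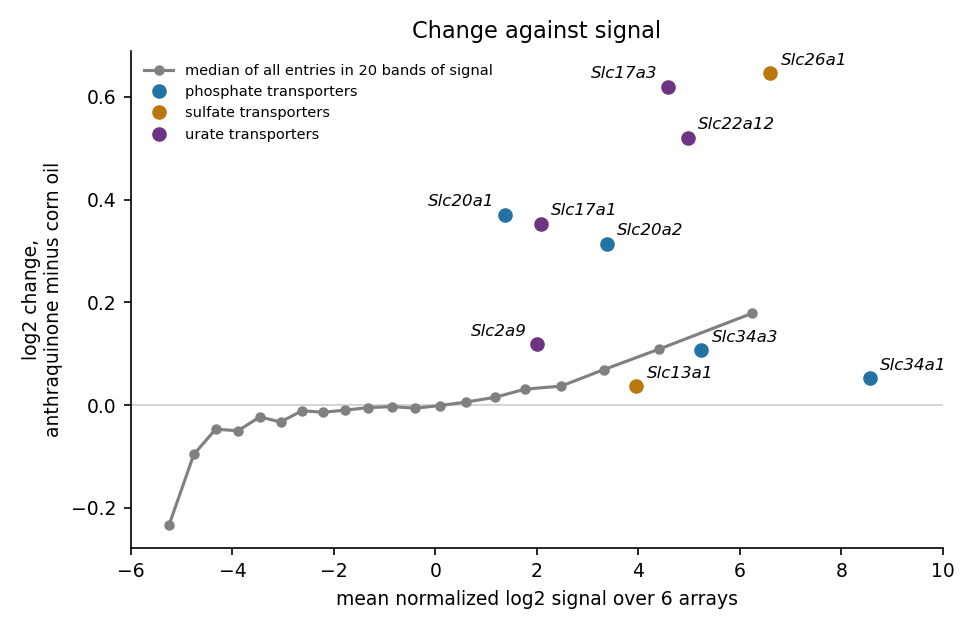
Log2 difference (anthraquinone minus corn oil) against mean normalized log2 signal for the 10 transporter genes, with the median of all entries in each of 20 bands of signal (grey line). Slc26a1, Slc17a3 and Slc22a12 lie well above the line, and Slc34a1, Slc34a3 and Slc13a1 lie on or below it.

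Slc17a1 and Slc17a3 lie side by side on rat chromosome 17 in assembly GRCr8, between Slc17a4 and Slc17a2, which belong to the same gene family. Slc17a2, on the list of urate handling genes, measured -0.55, -0.57 and -0.44 with anthraquinone, against -0.93, -1.17 and -1.02 with corn oil. All treated animals were above all controls, and the difference of 0.53 ± 0.09 (SE, limma adjusted p = 0.154) was close in size to that of Slc17a3. The groups were apart in the same direction for all 3 measured genes of the cluster, against 14.9% of all entries, but Slc17a1 and Slc17a3 prompted the look-up and the count supports nothing. Slc17a4 had no matched probe and was not analysed here. Of the flanking genes tested, Carmil1, a regulator of actin capping, was at -0.11 ± 0.14 and the linker histone gene H1f1 at 0.36 ± 0.14 (SE). H1f1 measured -2.58, -2.58 and -2.34 with anthraquinone, against -2.92, -2.63 and -3.05 with corn oil, so its groups did not overlap either. These neighbours were looked up after the values of the members were seen.

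Slc26a1 lies on chromosome 14, where its span falls inside that of Idua, which encodes the lysosomal enzyme alpha-L-iduronidase. Idua had the opposite sign, at -3.40, -3.30 and -3.34 with anthraquinone, against -2.85, -2.89 and -3.04 with corn oil (difference -0.42 ± 0.08, SE, limma adjusted p = 0.165). Groups did not overlap for either of these nested genes, and neither passed the test. Of all entries, 14.9% were apart upward and 10.3% downward. Fgfrl1, a receptor-like relative of the FGF receptors on the other side of Idua, was at 0.85 ± 0.25 (SE, limma adjusted p = 0.212). It measured 4.54, 5.20 and 5.43 with anthraquinone, against 4.45, 4.17 and 3.98 with corn oil, so its groups did not overlap either. Dgkq, Tmem175 and Gak, the next genes beyond Slc26a1, were at 0.01, -0.04 and 0.05.

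**Figure D4:**
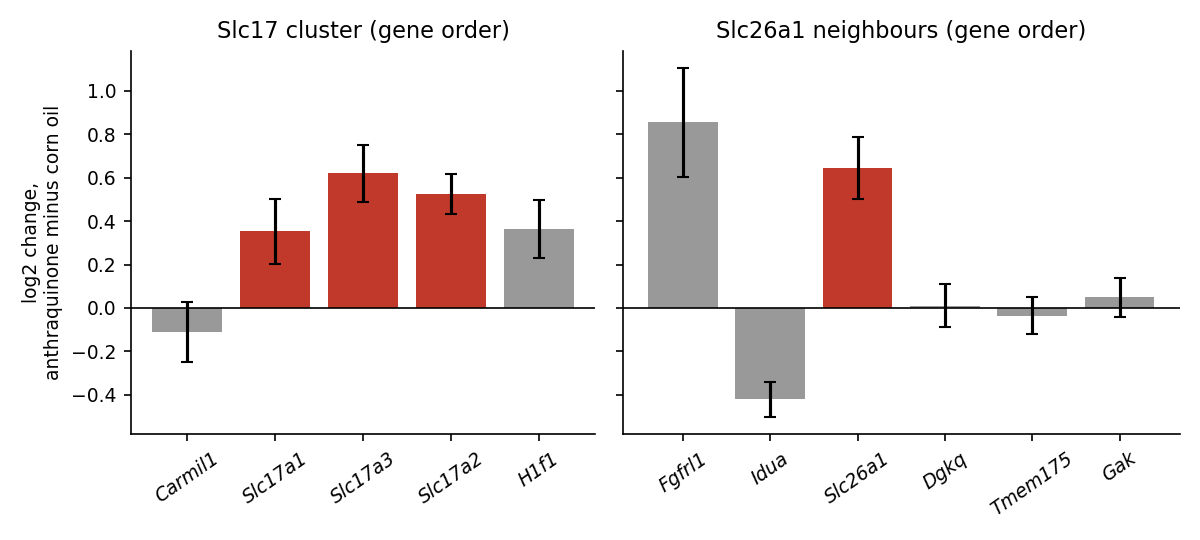
Log2 difference (anthraquinone minus corn oil; bars, with SE as error bars) for the tested genes around Slc26a1 and around the Slc17 cluster, in gene order on GRCr8, with the SLC genes in red. Slc17a1, Slc17a3 and Slc17a2 are all above 0, and Slc26a1 and the gene that encloses it, Idua, lie on opposite sides of 0.

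The windows upstream of 2 transcription starts are shown because Slc26a1 had one of the 2 largest differences and Slc34a1 is the bright phosphate carrier close to 0. They are the 250 bases before the start in RefSeq (GRCr8), which has such a window for 8 of the 10 genes, written 5′ to 3′ on the gene's strand, with motif matches in capitals. In Slc26a1 the capitals mark a match to TGACNNNGC, the form of the antioxidant response element bound by Nrf2. In Slc34a1 they mark a match to the TATA box (TATAAA). These are matches of letters only, and whether any factor binds there was not tested.
Slc26a1, chr14:1184721-1184970, plus strand: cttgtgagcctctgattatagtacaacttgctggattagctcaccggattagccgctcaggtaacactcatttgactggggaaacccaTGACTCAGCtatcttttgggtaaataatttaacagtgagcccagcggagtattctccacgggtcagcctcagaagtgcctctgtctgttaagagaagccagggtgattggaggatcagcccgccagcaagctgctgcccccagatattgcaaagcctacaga
Slc34a1, chr17:9238984-9239233, minus strand: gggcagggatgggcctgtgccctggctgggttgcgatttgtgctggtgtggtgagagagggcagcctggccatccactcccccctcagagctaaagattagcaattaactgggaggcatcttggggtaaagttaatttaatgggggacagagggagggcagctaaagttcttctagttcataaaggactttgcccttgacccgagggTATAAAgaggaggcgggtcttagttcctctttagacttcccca

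Both strands of 33469 rat windows of this length were searched. TGACNNNGC occurs in 10.1% of them and, of the 8 member windows, in that of Slc26a1. TATAAA occurs in 12.9%, and in Slc34a1 and Slc13a1 among the 8. The motif CAAAGTCCA, bound by the proximal tubule factor HNF4, occurs in 0.338% and in none of the 8. The Hnf4a gene was at -0.33 ± 0.14 (SE, limma adjusted p = 0.305).

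Genes on the list of phosphate regulation showed no common direction. Besides genes that control phosphate carriers, the list holds others such as Slc34a2, Xpr1, Alpl, Enpp1 and Ankh. Of the 22 genes listed, 20 were tested and 0 passed over all genes, with a median of 0.00. At an unadjusted p under 0.05 there was 1 higher and 1 lower, against 9.43% and 7.69% of all entries. The higher gene was Cyp24a1, which encodes the enzyme that inactivates vitamin D hormone, at 2.01, 2.21 and 2.04 with anthraquinone, against 0.89, 1.41 and 1.57 with corn oil (0.80 ± 0.19, SE, limma adjusted p = 0.191). All treated animals exceeded the controls. The lower gene was Fgfr1, an FGF receptor gene (-0.34 ± 0.12, SE, limma adjusted p = 0.237). Larger but scattered differences, with overlap of the groups, were those of Cyp27b1 (0.92 ± 0.52, SE, limma adjusted p = 0.412) and Slc34a2 (-0.96 ± 0.55, limma adjusted p = 0.420). Slc34a2 was dim, with means of -4.26 with anthraquinone and -3.30 with corn oil. It was well above background on 2 anthraquinone and 3 corn oil arrays, so it was kept only through the group where it was higher. The PTH receptor gene Pth1r, the FGF23 coreceptor gene Kl, the scaffold genes Nherf1 and Pdzk1 that hold Slc34a1 protein in the brush border, and Xpr1, a phosphate exporter gene, were at -0.09, -0.10, -0.09, 0.09 and 0.16.

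On the list of sulfate handling genes, which covers other sulfate carriers, sulfate activation and conjugation and the oxidation of sulfur amino acids, 23 of 30 were tested and 0 passed over all genes. At an unadjusted p under 0.05 there was 1 higher and 1 lower, against 9.43% and 7.69% of all entries, with a median of 0.05. The higher gene was Ethe1, a mitochondrial enzyme of sulfide oxidation, at 0.17 ± 0.07 (SE, limma adjusted p = 0.278), without overlap of the groups. The lower gene was Cdo1, which encodes the enzyme that opens cysteine breakdown to sulfate, at -1.32 ± 0.51 (SE, limma adjusted p = 0.275), with overlap. Slc26a6, a relative of Slc26a1 in the luminal membrane, was at 0.22 ± 0.10, and Papss2 and Suox, which make activated sulfate and sulfate itself, were at -0.06 and 0.00.

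On the list of urate handling genes, which covers other urate carriers and purine breakdown, 22 of 28 were tested and 0 passed over all genes. At an unadjusted p under 0.05, 6 were higher and 0 lower, against 9.43% and 7.69% of all entries, with a median of 0.11. Hprt1, a purine salvage gene given above, is 1 of the 6, and Slc17a2, Slc5a12 (0.49) and Ppat (0.35) are others. The efflux pump genes Abcc4 (1.19 ± 0.24, SE, limma adjusted p = 0.182) and Abcc2 (1.40 ± 0.37, limma adjusted p = 0.202) gave the largest differences. Abcc4 encodes a luminal pump that carries urate. It measured 3.15, 3.801 and 3.99 with anthraquinone, against 2.19, 2.51 and 2.66 with corn oil, with no overlap. The luminal urate pump gene Abcg2 was at -0.07 and the basolateral uptake carrier genes Slc22a6 and Slc22a8 at 0.10 and 0.11, so the urate carriers did not differ as 1 block. Xdh, encoding the enzyme that makes urate, was at 0.17 ± 0.10 (SE).

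**Figure D5:**
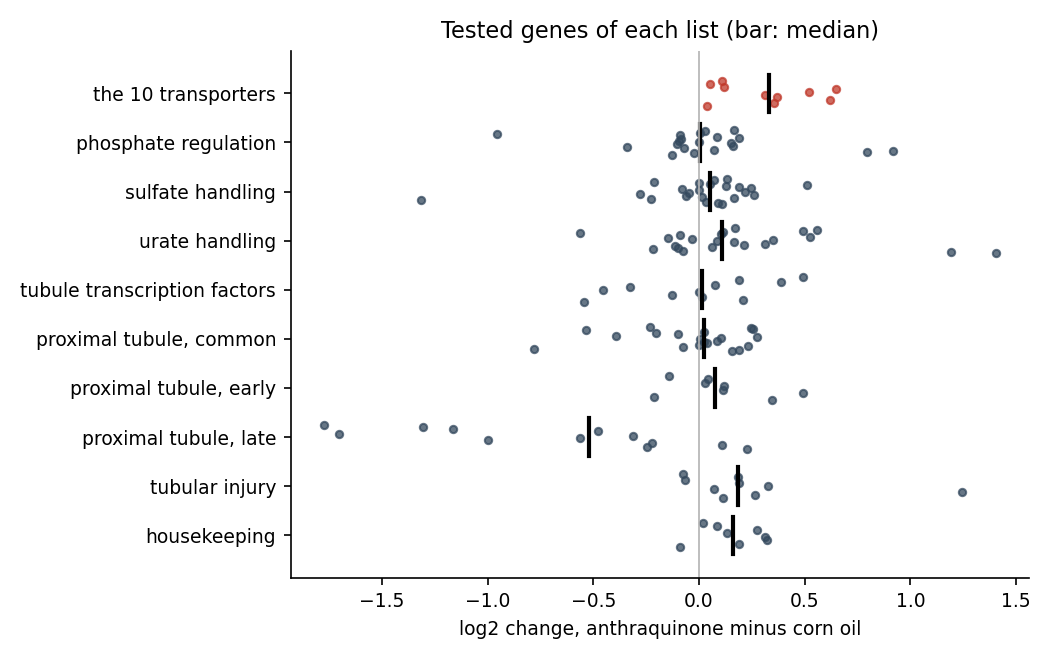
Log2 difference (anthraquinone minus corn oil) of each tested gene in 10 lists, with the list's median as a bar. The 10 transporters (red) lie between 0.04 and 0.65, the late proximal tubule genes have the lowest median, and each of the other lists holds genes on both sides of 0.

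In whole tissue, a change in the number of cells of a type cannot be told apart from a change in RNA per cell, and markers of the tubule were read for that reason. Of 20 genes common to the proximal tubule, such as Lrp2, Cubn and Aqp1, all were measured. They had a median of 0.02. At an unadjusted p under 0.05, 1 was higher (Fbp1, a gene of glucose synthesis, at 0.27) and 1 lower (Anpep, a brush border peptidase gene, at -0.78). The shares of all entries were 9.43% higher and 7.69% lower. Their summed linear level, in multiples of each array's 75th percentile, was 3230 to 3390 with anthraquinone and 2840 to 3240 with corn oil. Early segment genes had a median of 0.08 over 8 and summed levels of 529 to 596 with anthraquinone and 571 to 645 with corn oil. Late segment genes leaned lower, with a median of -0.52. At an unadjusted p under 0.05, 5 of 12 were lower and 0 higher, against 7.69% and 9.43% of all entries. Their sums overlapped, at 954 to 1060 with anthraquinone and 921 to 1120 with corn oil. The 5 were Slco1a6 (-1.77), the sugar transporter gene Slc5a10 (-1.70), Slco1a1 (-1.30), the peptide transporter gene Slc15a2 (-0.999) and Slc6a18 (-0.48), the lowest limma adjusted p of the 12 being 0.158.

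Markers of other cells were read in the same way. Of all entries, 9.43% were higher and 7.69% lower at an unadjusted p under 0.05. Of 9 collecting duct principal cell markers 5 (Scnn1b, Scnn1g, Hsd11b2, Gata2, Gata3) were lower and 1 (Aqp3) higher at an unadjusted p under 0.05, with sums of 139 to 174 with anthraquinone and 166 to 194 with corn oil. Of 4 red cell markers 3 (Alas2, Hbb and Slc4a1, which intercalated cells also use) were higher, with sums of 290 to 386 with anthraquinone and 193 to 235 with corn oil. Thick ascending limb markers summed to 605 to 797 with anthraquinone and 713 to 841 with corn oil, with 0 of 9 higher and 1 (Kcnj1) lower. The markers counted here were all above background in at least 1 whole group. Their part in the transporter differences was not tested. Of the tubular injury list 1 of 9 was higher at an unadjusted p under 0.05, which is near the share of all entries. It was the keratin gene Krt8 (0.33 ± 0.13, SE, limma adjusted p = 0.270). Among tubule transcription factor genes, Nr1h4 (0.39 ± 0.09), the bile acid receptor gene, and Esrra (0.21 ± 0.07), a regulator of oxidative metabolism, were higher at an unadjusted p under 0.05.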

How the data were processed

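Cy3-labelled RNA of 6 renal cortex samples, 3 anthraquinone and 3 corn oil, was read on Agilent arrays, per the labels. The deposited files give spot intensity from Agilent Feature Extraction 10.7.1.1, already corrected for background and spatial trend, per the file headers; the submitters' processing notes name version 10.7. The authors' deposited value table holds intensity per probe on an unstated scale. Set against the scanner values, 90.6 to 97.0% of its probes lay within 0.01 log2 of the processed intensity divided by the array's 75th percentile, so the table is linear and was not centred. Its column medians were 0.109, 0.111 and 0.110 for anthraquinone and 0.109, 0.113 and 0.114 for corn oil replicates 1, 2 and 3.

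Processed intensity was taken as log2 minus the 75th percentile of the array's 61657 non-control probes, leaving out 2 to 13 flagged spots per array. A probe was kept (41310 were) if each array of either group had it well above background. Accessions were matched without version to RefSeq's GRCr8 table, which named 27460 probes; the arrays were designed on rn4, so the table served for names and gene order only. The brightest probe stood for its gene, which gave 32663 entries, 11831 with a symbol. Groups, taken from the labels, were compared by lmFit and eBayes (limma 3.58.1 under R 4.3.3). The number of arrays limits the precision. Replicate numbers are shared between groups but did not pair the animals (correlation of same-numbered deviations 0.03, -0.06 and -0.01). The series' design text calls the replicates biological. The fit was tested on simulated data.

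The transporters and gene lists were chosen with earlier results of these data known. The rule for pathway lists named genes past the adjusted threshold, or else the 3 with the largest difference among those with an unadjusted p under 0.05 and groups that do not overlap. Other genes were named for their role, some after their values were seen. Other scalings, filters, probe rules, variance models, blocks and left-out arrays were tried. Normexp with an offset of 50 used the median signal of each spot, which was decided after seeing the data. Some results of the transcription factor list are not reported here.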

Additional observations from a re-analysis of the deposited data

How the results depend on the processing

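No transporter gene passed the adjusted threshold in the main setting or in 20 of 21 alternatives. Without the filter on dim probes, 49481 entries were tested and 6609 passed, 6049 of them higher. Of the transporters 2 passed there, Slc17a3 (limma adjusted p = 0.0399) and Slc26a1 (0.0427). Their differences were the same as in the main setting, and their unadjusted limma p was larger. It was 0.0051 against 0.00326 for Slc17a3 and 0.00553 against 0.00358 for Slc26a1. The cause of the large number of calls was not tested. The number of entries that passed, 9 in the main setting, was 16 with normexp, 14 with every probe alone, 58 with an intensity trend, 54 at a threshold of 0.1, 2 with the slide as a block, 1 with the row on the slide as a block and 1 to 25 with 1 array left out (25 without corn oil replicate 3, 1 without anthraquinone replicate 1 or 2 or corn oil replicate 2), and the cause of these moves was not tested. The replicate block, which takes same-numbered animals as pairs, left 1 entry and 0 transporters past the threshold. The number of transporters with an unadjusted p under 0.05, 4 in the main setting, was 2 to 5 with 1 array left out, the lowest without corn oil replicate 2, and 3 to 5 otherwise. Slc26a1, Slc17a3, Slc22a12, Slc20a1, Slc20a2 and Slc17a1 kept their sign in all 21 alternatives and on their dimmer probes, with ranges of 0.46 to 0.78, 0.47 to 0.70, 0.40 to 0.67, 0.22 to 0.45, 0.10 to 0.44 and 0.19 to 0.44. The lowest values of Slc20a1 and Slc20a2 came with the row as a block and those of Slc17a1 without anthraquinone replicate 3. The other 4 genes, none of them called, changed sign in some. Quantile normalization gave -0.048 for Slc13a1, -0.077 for Slc34a1 and -0.009 for Slc34a3, and cyclic loess gave -0.057, -0.159 and -0.017. Leaving out corn oil replicate 1 gave -0.03 for Slc34a1 and -0.006 for Slc13a1, as did the slide block. Slc13a1 was also -0.031 with the mean of its probes, -0.11 to 0.154 with 1 array left out and -0.137 on a dimmer probe, Slc34a1 was -0.002 on its dimmer probe, and Slc2a9 was -0.046 with the row as a block.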
